A study of Mus musculus with 22 samples.

Results

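The FGF receptors Fgfr1, Fgfr2 and Fgfr3, the Etv transcription factors Etv1, Etv4 and Etv5, and the Sprouty inhibitors Spry1, Spry2 and Spry4 were followed through all libraries of a study of astrocytes in the mouse visual cortex. These 9 genes were taken by name from 24537 genes with FPKM values (fragments per kilobase, a level scaled to transcript length and library size). They were chosen with earlier values of the same libraries known, and which of these served for the choice is not recorded. The contrast between the cortices after monocular deprivation is treated as one that did, so the members' differences in it are a description, without a test. Values of the other comparisons were known as well.

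All mice were C57BL/6J carrying 73.12 GFAP-cre and RPL22-HA. The Cre is driven from a Gfap promoter and switches on an HA-tagged form of Rpl22, a protein of the ribosome. RNA held by the tagged ribosomes was pulled down and sequenced after poly(A) selection. The normally reared group had a 12 h light cycle until postnatal day 45 (3 pulldown libraries), and the dark-reared group had been kept in darkness since birth until the same age (4 libraries). The dark-exposed group had 10 days of darkness and was taken at day 120 (3 libraries). After 2 days of monocular deprivation, mice aged 28 days gave the cortex contralateral to the deprived eye (3 libraries) and the ipsilateral cortex (3 libraries). Each group also had 1 input library, which is RNA of the tissue before the pulldown, so inputs allow no test between groups. The labels do not say whether replicates of a group came from separate mice, so p-values measure the spread between these libraries.

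Fibroblast growth factors bind receptor tyrosine kinases at the cell surface, and the signal runs through Ras, Raf and Mek to the kinase Erk. Etv1, Etv4 and Etv5, the Pea3 branch of the Ets family, are transcription factors that are induced downstream of this pathway in many tissues. Sprouty proteins are induced by the same signal and damp it, so their transcripts are often read as a gauge of pathway activity. In cortical astrocytes Fgfr3 is a common marker of the cell type.

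Of the 21 libraries, 20 had an estimated 21.1 to 51.4 M reads. Contralateral replicate 2 gave no estimate and had 14092 genes above 0, fewer than any other library. The summed level of 12 astrocyte markers was 11935 to 17044 FPKM in pulldowns and 1461 to 2145 FPKM in inputs, and all 12 were higher in the pulldowns (adjusted p under 0.05). Summed neuron markers (12 genes) ran from 281 to 1327 FPKM in pulldowns and from 3444 to 4072 FPKM in inputs, so neuronal RNA was lower there but not at 0. Oligodendrocyte markers (9 genes) reached 1365 to 3565 FPKM in pulldowns and 1025 to 1790 FPKM in inputs. Those of oligodendrocyte precursors (8 genes), cells that also carry FGF receptors and Etv factors, reached 191 to 330 FPKM against 99.2 to 160 FPKM. The part of these cells in the members' levels was not tested.

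The monocular pulldowns stood apart in pairs. Against the mean of normal rearing, the median log2 difference of the 3 receptors was -1.30 in contralateral replicate 2 and -1.16 in ipsilateral replicate 2. In the pair numbered 1 it was -0.57 and -0.36, and in the pair numbered 3 it was 0.06 and 0.16. Astrocyte markers moved the same way, with medians of -0.96 and -0.88 in pair 2 against -0.30 and -0.14 for all genes tested. The precursor of ribosomal RNA, Rn45s, was at 20158 to 31654 FPKM in the 4 libraries of pairs 1 and 2, at 130 and 160 FPKM in pair 3, and at 142 to 14292 FPKM in the other pulldowns. Its part in the shift was not tested. In bulk samples, fewer cells of a type and less RNA per cell cannot be told apart.

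**Figure D1:**
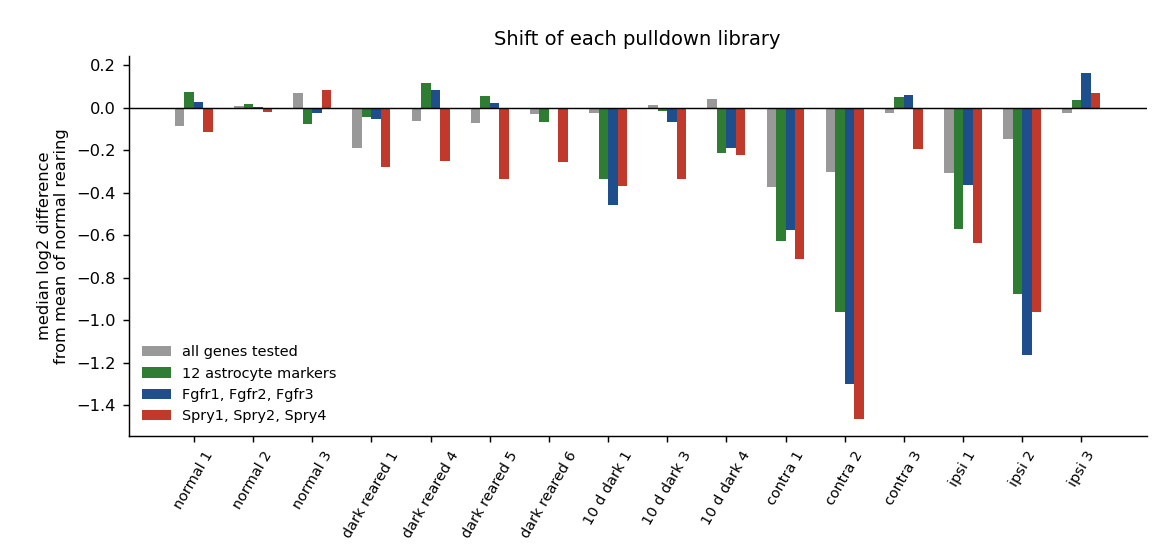
Median log2 difference of each pulldown library from the mean of normal rearing, on the log2(FPKM + 1) scale, for all genes tested, 12 astrocyte markers, the 3 receptors and the 3 Sprouty genes (1 bar each per library). The bars of contralateral 2 and ipsilateral 2 reach -1.30 and -1.16 for the receptors, while those of the pair numbered 3 lie at 0.06 and 0.16.

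The receptors were the most abundant members in the pulldowns, and Fgfr3 stood highest of the 9. On GRCm38 (GENCODE vM21) Fgfr3 lies at chr5:33721674-33737068, Fgfr1 at chr8:25513654-25575718 and Fgfr2 at chr7:130162451-133123350. Fgfr3 was at 213, 183 and 199 FPKM in normal rearing, at 191, 210, 220 and 201 FPKM in dark rearing, and at 169, 211 and 192 FPKM in the dark-exposed group. It was at 134, 79.9 and 206 FPKM in the contralateral and at 159, 92.8 and 222 FPKM in the ipsilateral cortex, in the order of the numbered pairs. The inputs lay between 22.9 and 27.4 FPKM, so each pulldown, the low pair 2 included, was above each input.

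Fgfr1, the receptor with the broadest use across tissues, was at 57.3 to 59.6 FPKM in normal rearing and at 55.5 to 62.6 FPKM in dark rearing, with inputs of 9.2 to 10.4 FPKM. Its dark-exposed libraries were at 42.4, 54.3 and 50.6 FPKM, all below the 3 normally reared ones. In the monocular libraries Fgfr1 ran from 23.7 to 61.4 FPKM, a span set by the pairs. Fgfr2, which glial cells of both lineages use, ran from 11.7 FPKM in contralateral replicate 2 to 44.3 FPKM in ipsilateral replicate 3, against 7.0 to 10.0 FPKM in inputs. Among the 9 members the share of the mean taken by the SD within normal rearing was lowest for Etv5 (1.50%) and Fgfr1 (1.98%), and within the contralateral group the receptors spread by 41.6% to 58.0%.

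Going down the group means, Fgfr3 ran from dark rearing (205 ± 12.3 FPKM, SD, n = 4) through normal rearing (198 ± 14.96, n = 3), dark exposure (191 ± 20.6, n = 3) and ipsilateral (158 ± 64.5, n = 3) to contralateral (140 ± 63.4, n = 3). Neighbours in that order overlapped at every step. The order of Fgfr1 was the same, and there normal rearing and dark exposure did not overlap. Fgfr2 differed only in having normal rearing (38.8 ± 4.66 FPKM) ahead of dark rearing (35.2 ± 3.27 FPKM), and all its neighbours overlapped.

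**Figure D2:**
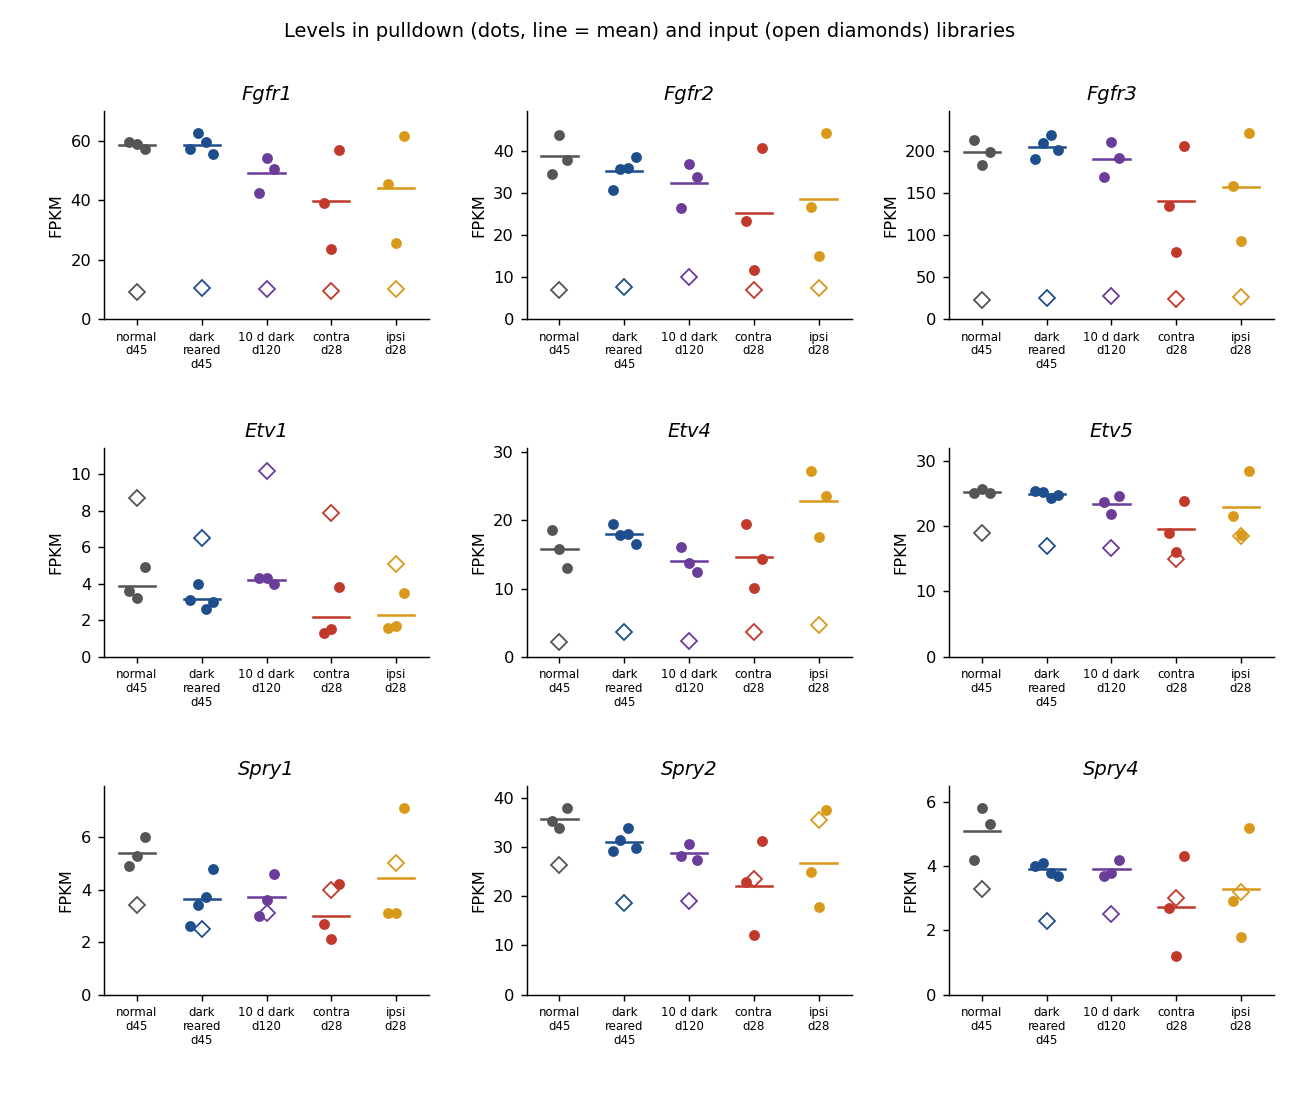
FPKM of each member in every pulldown library (dots, with the group mean as a line) and in the 1 input library of each group (open diamonds), y axes from 0. The receptors and Etv4 lie above their inputs throughout, Etv1 lies below, and the 3 Sprouty genes lie close to theirs.

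The 3 Etv factors differed in level and in their relation to input. Etv1 lies at chr12:38779380-38870484 and Etv4 at chr11:101769742-101785371. Etv5 was the most even member outside the monocular groups, at 25 to 25.7 FPKM in normal rearing, 24.3 to 25.4 FPKM in dark rearing and 21.8 to 24.6 FPKM in dark exposure. Its inputs, at 14.9 to 18.9 FPKM, were not far below. Etv4 was at 18.6, 15.8 and 13.0 FPKM in normal rearing, at 16.6 to 19.5 FPKM in dark rearing and at 12.5 to 16.1 FPKM in dark exposure, against 2.2 to 4.6 FPKM in inputs.

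Etv1, which marks layer 5 pyramidal neurons in cortex, was low in pulldowns, from 1.3 to 4.9 FPKM, and higher in all 5 inputs, at 5.1 to 10.2 FPKM. In the monocular libraries Etv1 was at 1.3 and 1.5 FPKM in contralateral replicates 1 and 2 and at 1.6 and 1.7 FPKM in the ipsilateral ones, with pair 3 at 3.8 and 3.5 FPKM. Etv4 did not follow the order of the pairs that the receptors showed. Its highest library was ipsilateral replicate 1, at 27.3 FPKM, and pair 3 came between the other pairs.

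Etv4 had the highest group mean in the ipsilateral cortex (22.8 ± 4.90 FPKM, n = 3), ahead of dark rearing (18.0 ± 1.19, n = 4), normal rearing (15.8 ± 2.80, n = 3), contralateral (14.6 ± 4.65, n = 3) and dark exposure (14.1 ± 1.83, n = 3), and each group overlapped with the next. Etv5 went from normal rearing (25.3 ± 0.379 FPKM) through dark rearing, dark exposure and ipsilateral to contralateral (19.6 ± 3.99 FPKM), also with overlap at each step. Etv1 was highest in dark exposure (4.20 ± 0.173 FPKM) and lowest in the contralateral cortex (2.20 ± 1.39 FPKM).

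RefSeq promoters on GRCm38.p6 were at hand for 6 of the 9 members, 9 promoters in all, cut here to the 250 bases before the start. The Ets core GGAA, searched on both strands (TTCC on the other), stood in 93.4% of 32851 promoters of that length, with a median of 3 matches, so a match sets no promoter apart. The Etv5 gene (chr16:22381309-22439719) has a pair of annotated starts that differ in this core, shown as an example from an Ets factor. Those of Fgfr3 (1 and 5 matches) and of Etv1 (2 and 1) differ too. The upstream Etv5 start holds 0 matches and the downstream one 4, written in capitals, 5′ to 3′ on the minus strand.
Etv5 upstream start, chr16:22439571-22439820: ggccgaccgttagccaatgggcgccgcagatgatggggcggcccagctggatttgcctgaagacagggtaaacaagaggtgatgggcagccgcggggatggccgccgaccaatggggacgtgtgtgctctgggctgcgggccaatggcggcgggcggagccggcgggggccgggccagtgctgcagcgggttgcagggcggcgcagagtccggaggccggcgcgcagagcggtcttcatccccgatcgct
Etv5 downstream start, chr16:22438369-22438618: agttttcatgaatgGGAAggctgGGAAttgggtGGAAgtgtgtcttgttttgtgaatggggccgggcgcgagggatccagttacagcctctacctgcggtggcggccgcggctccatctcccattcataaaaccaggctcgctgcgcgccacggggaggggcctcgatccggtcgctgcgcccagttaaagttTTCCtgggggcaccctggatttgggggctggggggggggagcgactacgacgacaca
The 8-base Ets consensus CCGGAAGT, in 2.88% of all promoters on either strand, was in 0 of the 9. FPKM here is 1 value per gene, so use of the starts could not be compared.

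Of the Sprouty genes, Spry2 was the abundant one. It was at 35.3, 33.9 and 37.8 FPKM in normal rearing, at 29.2, 31.4, 33.8 and 29.7 FPKM in dark rearing and at 28.1, 30.6 and 27.3 FPKM in dark exposure. Both dark groups lay below all normally reared libraries, by a margin of 0.1 FPKM for dark-reared replicate 5.

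Spry1 was at 4.9, 5.3 and 6.0 FPKM in normal rearing and at 2.6, 3.4, 3.7 and 4.8 FPKM in dark rearing, with 3.0, 3.6 and 4.6 FPKM in dark exposure. Spry4 was at 4.2, 5.8 and 5.3 FPKM in normal rearing, at 3.7 to 4.1 FPKM in dark rearing and at 3.7, 3.8 and 4.2 FPKM in dark exposure. All 3 had their highest group mean in normal rearing and their lowest in the contralateral cortex. For Spry1 these means were 5.40 ± 0.557 and 3.00 ± 1.08 FPKM (SD, n = 3 each), for Spry2 35.7 ± 1.98 and 22.0 ± 9.57 FPKM, and for Spry4 5.10 ± 0.819 and 2.73 ± 1.55 FPKM. Normal rearing did not overlap with the next group for Spry2 alone, and every other pair of neighbours did, in all 3 genes.

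All 3 Sprouty genes had lower means in both darkness groups than in normal rearing. For Spry2 and Spry4 the means of both monocular groups were lower still. The promoters of Spry1 and Spry2 are shown as those of Sprouty genes at hand, with GGAA cores in capitals, and that of Spry4 is not shown here. Spry1 (chr3:37639947-37644598, plus strand) holds 1 match and Spry2 (chr14:105891947-105896819, minus strand) holds 3, against the median of 3 for all promoters.
Spry1, chr3:37639697-37639946: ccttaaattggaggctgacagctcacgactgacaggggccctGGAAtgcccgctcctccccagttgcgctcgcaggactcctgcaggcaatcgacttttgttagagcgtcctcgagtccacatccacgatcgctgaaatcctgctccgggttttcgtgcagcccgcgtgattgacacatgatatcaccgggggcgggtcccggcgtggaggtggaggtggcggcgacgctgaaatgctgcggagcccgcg
Spry2, chr14:105896820-105897069: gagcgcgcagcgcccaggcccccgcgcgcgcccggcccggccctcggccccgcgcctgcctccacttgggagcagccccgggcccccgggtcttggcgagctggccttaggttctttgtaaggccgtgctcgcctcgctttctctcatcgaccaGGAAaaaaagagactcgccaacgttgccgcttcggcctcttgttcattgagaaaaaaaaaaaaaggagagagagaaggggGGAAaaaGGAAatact
In Spry2 all 3 cores sit in the part nearer the start, and in Spry1 the only one sits far from it.

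Pulldown against input asked which members were carried by the tagged ribosomes beyond their level in the tissue. The 3 receptors, Etv4 and Etv5 were higher in pulldowns and Etv1 was lower, by limma over all 21 libraries with Benjamini-Hochberg adjustment over 12070 genes. The log2 fold change, on the log2(FPKM + 1) scale with its SE, was 2.74 ± 0.18 for Fgfr3 (adjusted p = 3.63e-11), 2.18 ± 0.17 for Fgfr1 (4.53e-10) and 1.84 ± 0.21 for Fgfr2 (1.56e-07). It was 2.08 ± 0.13 for Etv4 (1.59e-11), 0.41 ± 0.09 for Etv5 (0.000575) and -1.09 ± 0.16 for Etv1 (2.98e-06). The Sprouty genes did not pass, at 0.11 ± 0.17 for Spry1, 0.22 ± 0.18 for Spry2 and 0.27 ± 0.17 for Spry4 (limma adjusted p = 0.555, 0.277 and 0.168). These averages join groups of opposite sign, with 1 input per group. Spry1, Spry2 and Spry4 each lay above input in normal rearing, dark rearing and dark exposure, and below it in both monocular groups. For Spry2 the log2 differences were 0.42, 0.71 and 0.57, then -0.18 contralaterally and -0.46 ipsilaterally.

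With 6 of 9 members past the threshold, the share was near that of all genes, of which 77.1% passed, 26.4% higher and 50.7% lower. The split differed, with 5 members higher and 1 lower, a median of 0.41 over the members and -0.31 over all genes. These values too were known when the members were chosen, so the split is a description only. Every pulldown was above every input for Fgfr1, Fgfr2, Fgfr3 and Etv4 (14.9% of genes), and every pulldown was below every input for Etv1 (28.9% of genes).

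The Sprouty result also turned on scaling and on pair 2. Quantile normalization moved the median of all genes to 0.01 and the calls to 4646 higher and 4638 lower, and median-ratio scaling gave a median of 0.02 with 4552 higher and 4527 lower. Under either, all 9 members passed, 8 of them higher, Spry2 at 0.44 and 0.57 (76.9% and 75.8% of all genes passed). Without contralateral replicate 2, Spry4 passed (0.34 ± 0.14, limma adjusted p = 0.0361) and 7 members in all, against 77.7% of genes. Without both libraries of pair 2, left out after the values were seen, Spry2 (0.36 ± 0.12) and Spry4 (0.40 ± 0.11) passed and 8 members in all, against 78.2% of genes.

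**Figure D3:**
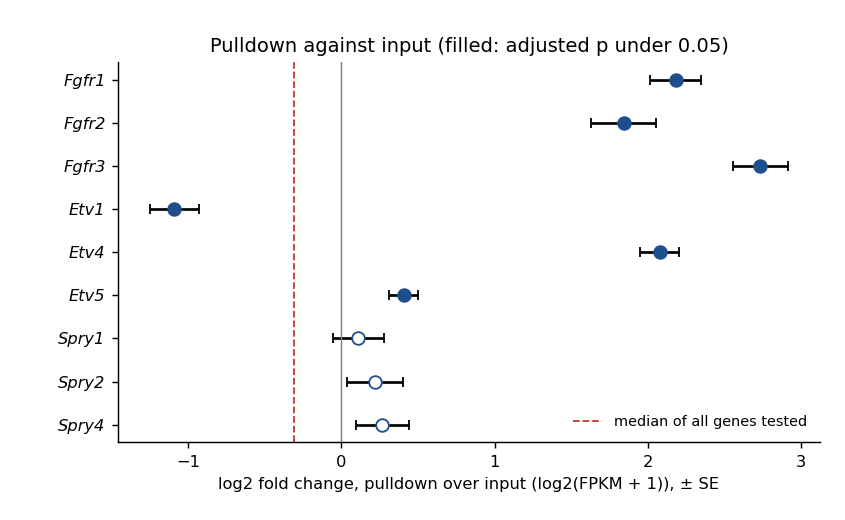
Log2 fold change of each member, pulldown over input, with SE as bars (filled circles passed adjusted p under 0.05, dashed line the median of all genes tested). Fgfr3 lies farthest right at 2.74 and Etv1 alone lies left of 0, at -1.09.

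The members whose pattern over the 16 pulldowns was followed further had their closest genes picked by Pearson's r on log2 values among 7371 genes above a mean of 5 FPKM. Closest to Fgfr3 were Lypd6 (r = 0.98), Gna13 (0.98) and Zhx2 (0.98), and to Spry2 were Chst11 (0.98), Tril (0.96) and Lrig1 (0.96). Spry4 had Spry2 (0.96), Chsy1 (0.95) and Fgfr2 (0.95), so members stood among its closest genes. For Etv5 they were Nek6 (0.94), Golph3 (0.94) and Rab31 (0.93), and for Etv4 Tlcd1 (0.85), Orai1 (0.84) and Cbs (0.83). These libraries share the shift of the monocular pairs, which lies within the groups. Taking out group means leaves that shift in place, and the values after this step were 0.90 to 0.98 for all 15 genes. Likeness apart from the shift was therefore not tested.

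Dark rearing against normal rearing, both taken at day 45, asked what growing up without light did to these transcripts. None of the 9 members passed adjusted p under 0.05 by limma over 11562 genes, where 1 gene did (0.00865%), and 0 members against 640 genes (5.54%) had an unadjusted p under 0.05. For Spry1, Spry2 and Spry4 the highest of the 4 dark-reared values was under the lowest of the 3 normally reared values. The same held for 9.06% of genes. These values were known when the members were chosen, so nothing is read from this count. The receptors and the Etv factors overlapped between the groups.

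The log2 difference was -0.49 ± 0.25 for Spry1, -0.20 ± 0.26 for Spry2 and -0.31 ± 0.27 for Spry4 (SE, limma adjusted p = 0.866, 0.928 and 0.896), against a median of -0.08 for all genes. Over the alternatives the lowest adjusted p was 0.200 for Spry1, 0.297 for Spry2 and 0.210 for Spry4, and the direction held in each. Scaling made the differences smaller, to -0.31 for Spry1 and -0.14 for Spry4 with quantile normalization and to -0.09 for Spry2 with median-ratio scaling. The monocular libraries set much of this error. Without them, the differences were the same and the SE were 0.17, 0.10 and 0.12, with limma adjusted p of 0.282, 0.365 and 0.299. Etv4 was at 0.19 ± 0.20 and Etv5 at -0.02 ± 0.15, and the receptors lay between -0.13 ± 0.35 (Fgfr2) and 0.05 ± 0.28 (Fgfr3).

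Whole tissue was lower too. The dark-reared input was below the normally reared one for Spry1 (2.5 against 3.4 FPKM), Spry2 (18.5 against 26.3 FPKM) and Spry4 (2.3 against 3.3 FPKM), with 1 library each and 43.9% of genes lower. Summed neuron markers were lower in the dark-reared pulldowns (281 to 466 FPKM) than in the normally reared ones (473 to 1327 FPKM), with 12 of 12 genes below 0 and a median of -0.92, and close in the inputs (3600 and 3658 FPKM). Microglia markers, for comparison, summed to 24.2 to 36.4 FPKM and 22.1 to 36.6 FPKM in these pulldowns. The inputs were not alike in other markers. In the dark-reared and the normally reared input, astrocyte markers summed to 2145 and 1461 FPKM and microglia markers to 573 and 281 FPKM. The part of neuronal RNA and of these input differences in the Sprouty values was not tested.

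The dark-exposed group of day 120 was compared with the same normally reared libraries, so age and darkness cannot be told apart and the controls are shared with dark rearing. Again 0 of 9 members passed, where 10 of 11562 genes did (0.0865%), and 0 members against 442 genes (3.82%) had an unadjusted p under 0.05 by limma. Fgfr1, Etv5, Spry1 and Spry2 lay below all normally reared libraries in all 3 libraries (4.6% of genes). Nothing is read from this count either, as these values were known when the members were chosen. Spry4 met the control range at 4.2 FPKM.

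The log2 differences were -0.45 ± 0.27 for Spry1, -0.31 ± 0.27 for Spry2, -0.31 ± 0.29 for Spry4, -0.26 ± 0.29 for Fgfr1 and -0.11 ± 0.16 for Etv5 (SE, limma adjusted p = 1.0 each), against a median of 0.01 for all genes. The input was lower than the normally reared one for Spry2 (19.0 against 26.3 FPKM), Spry4 (2.5 against 3.3 FPKM) and Spry1 (3.1 against 3.4 FPKM), while 37.0% of genes were lower. The input was higher for all 3 receptors, Fgfr2 at 10.0 against 7.0 FPKM. Summed astrocyte markers ran from 12479 to 14853 FPKM against 14109 to 15924 FPKM in normal rearing, with 11 of 12 genes below 0 (median -0.22), and summed microglia markers were higher (86.4 to 147 against 22.1 to 36.6 FPKM). Neuron markers summed to 779 to 1271 FPKM against 473 to 1327 FPKM, with 0 of 12 genes below 0 and a median of 0.22, whereas 12 of 12 were below 0 in dark rearing. Their part in the members' values was not tested.

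**Figure D4:**
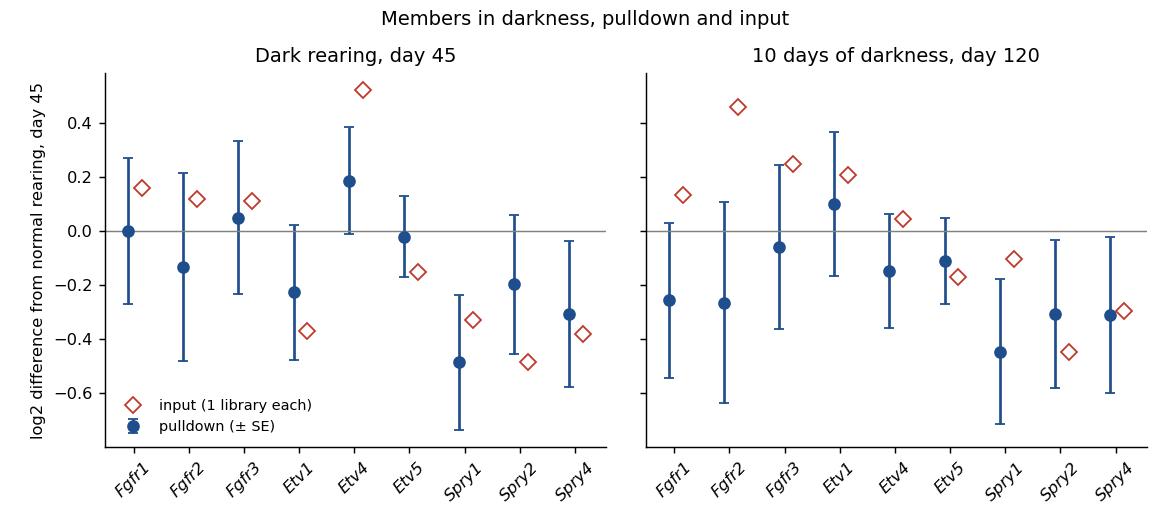
Log2 difference of each member from normal rearing at day 45, for dark rearing (left) and for 10 days of darkness at day 120 (right), in pulldowns (circles with SE) and in the 1 input of each group (open diamonds). All 3 Sprouty genes lie below 0 in both panels and in both materials, from -0.10 to -0.49.

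The ipsilateral cortex at day 28 was set against normal rearing at day 45, a comparison in which age and deprivation cannot be told apart and the same controls serve again. By limma 0 of 9 members and 0 of 11562 genes (0.0%) passed, with 1108 genes (9.58%) at an unadjusted p under 0.05. Etv4 was higher by 0.50 ± 0.21 (unadjusted p = 0.0334, limma adjusted p = 0.504) and Etv1 lower at -0.62 ± 0.27 (0.0359 and 0.504). The other 7 lay between -0.57 ± 0.29 (Spry4) and -0.16 ± 0.16 (Etv5), against a median of -0.16 for all genes. The ipsilateral libraries also belong to the monocular contrast treated as having served the choice of members. The members' values and p-values here are therefore a description, and nothing is read from them. For 0 of 9 members did the libraries of these groups stand wholly apart, where 6.73% of genes did on the lower and 2.58% on the higher side. Cell type markers differed between these groups too. Summed precursor markers ran from 304 to 330 FPKM ipsilaterally and from 243 to 280 FPKM in normal rearing, without overlap (median log2 difference 0.09, 3 of 8 genes below 0). Oligodendrocyte markers summed to 2098 to 3442 against 1517 to 2302 FPKM (median 0.54), while astrocyte and neuron markers both had a median of -0.48. Their part in the values of Etv4 and the other members was not tested.

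With the monocular pairs as a block, 7 of 9 members passed, 6 lower and Etv4 higher, at limma adjusted p from 0.0176 to 0.0347. Of all genes 1033 (8.93%) passed, 905 (7.83%) lower and 128 (1.11%) higher. The block takes the differences between pairs out of the error, while the normally reared libraries belong to no pair. For Fgfr1 the SE fell from 0.29 to 0.10 at the same difference of -0.49. The error of this comparison is then understated, so no conclusion is drawn from these calls. Without pair 2 and with no block, Etv4 was at 0.66 ± 0.17 (limma adjusted p = 0.344), whereas Fgfr3 moved to -0.08 ± 0.19 and Fgfr1 to -0.15 ± 0.18. The negative receptor values in this comparison thus rested largely on ipsilateral replicate 2, and that of Etv4 did not. Because ipsilateral values are treated as part of the choice of members, the value of Etv4 is a description only.

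The monocular contrast was read by pair, contralateral against ipsilateral, where the numbered pairs deviated together (r = 0.80, 0.79 and 0.90 across 11562 genes). Etv4 had the largest difference of the 9. It was at 19.4 against 27.3 FPKM in pair 1, at 10.1 against 17.6 FPKM in pair 2 and at 14.4 against 23.6 FPKM in pair 3, or 71.1%, 57.4% and 61.0% of the ipsilateral level. The mean log2 difference was -0.63 with an SD of 0.14 over 3 pairs, and the inputs were at 3.6 against 4.6 FPKM.

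All members but Etv1, 8 of 9, were lower contralaterally in every pair, as were 20.8% of all genes, and nothing is read from this count because values of the contrast were known when the members were chosen. Spry1 was at 2.7, 2.1 and 4.2 FPKM against 3.1, 3.1 and 7.1 FPKM, a mean of -0.40 with an SD of 0.25. Spry2 was at 22.8, 12.1 and 31.2 FPKM against 24.9, 17.8 and 37.4 FPKM, a mean of -0.30 with an SD of 0.20. Spry4 averaged -0.22 with an SD of 0.14. For Sprouty the smallest difference was in pair 1 in all 3 genes.

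Etv5 had the most even difference, at 88.4%, 86.0% and 83.9% of the ipsilateral level (mean -0.21, SD 0.04). The receptors were at 78.5% to 93.1%, with means of -0.14 (SD 0.06) for Fgfr1, -0.21 (SD 0.11) for Fgfr2 and -0.19 (SD 0.07) for Fgfr3. Astrocyte markers had a median of -0.08 in the same contrast, and all genes -0.06. Precursor markers summed to 282.6, 257.0 and 265.7 FPKM contralaterally against 329.6, 318.6 and 304.1 FPKM ipsilaterally, lower in each pair, with 7 of 8 genes below 0 and a median of -0.19. Among them Olig1 and Sox10 were at -0.35 and -0.27. Oligodendrocyte markers had 9 of 9 genes below 0 and a median of -0.08, where 69.7% of all genes were below 0. The part of precursors and oligodendrocytes in the members' differences, that of Etv4 included, was not tested. Etv1 averaged -0.06 with an SD of 0.14, and its input went the other way, at 7.9 against 5.1 FPKM.

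The contralateral input was lower for the same 8 members (55.2% of all genes), with 1 library per side, and nothing is read from this count either. Spry2 had the lowest share of the ipsilateral input, at 23.4 against 35.4 FPKM, or 66.1%, while Fgfr2 was at 7.0 against 7.3 FPKM. The unpaired group means depended on single libraries. Without contralateral replicate 2 the difference turned to 0.18 for Fgfr1, 0.23 for Fgfr2, 0.16 for Fgfr3, 0.07 for Etv1, 0.06 for Spry2 and 0.12 for Spry4, and stayed below 0 for Etv4 (-0.41), Etv5 (-0.08) and Spry1 (-0.23). That setting keeps the low ipsilateral partner of the library left out. Without both libraries of pair 2, left out after the values were seen, all 9 were below 0, with Fgfr1 at -0.16, Fgfr2 at -0.15, Fgfr3 at -0.17, Spry2 at -0.19, Spry4 at -0.15 and Etv4 at -0.57.

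**Figure D5:**
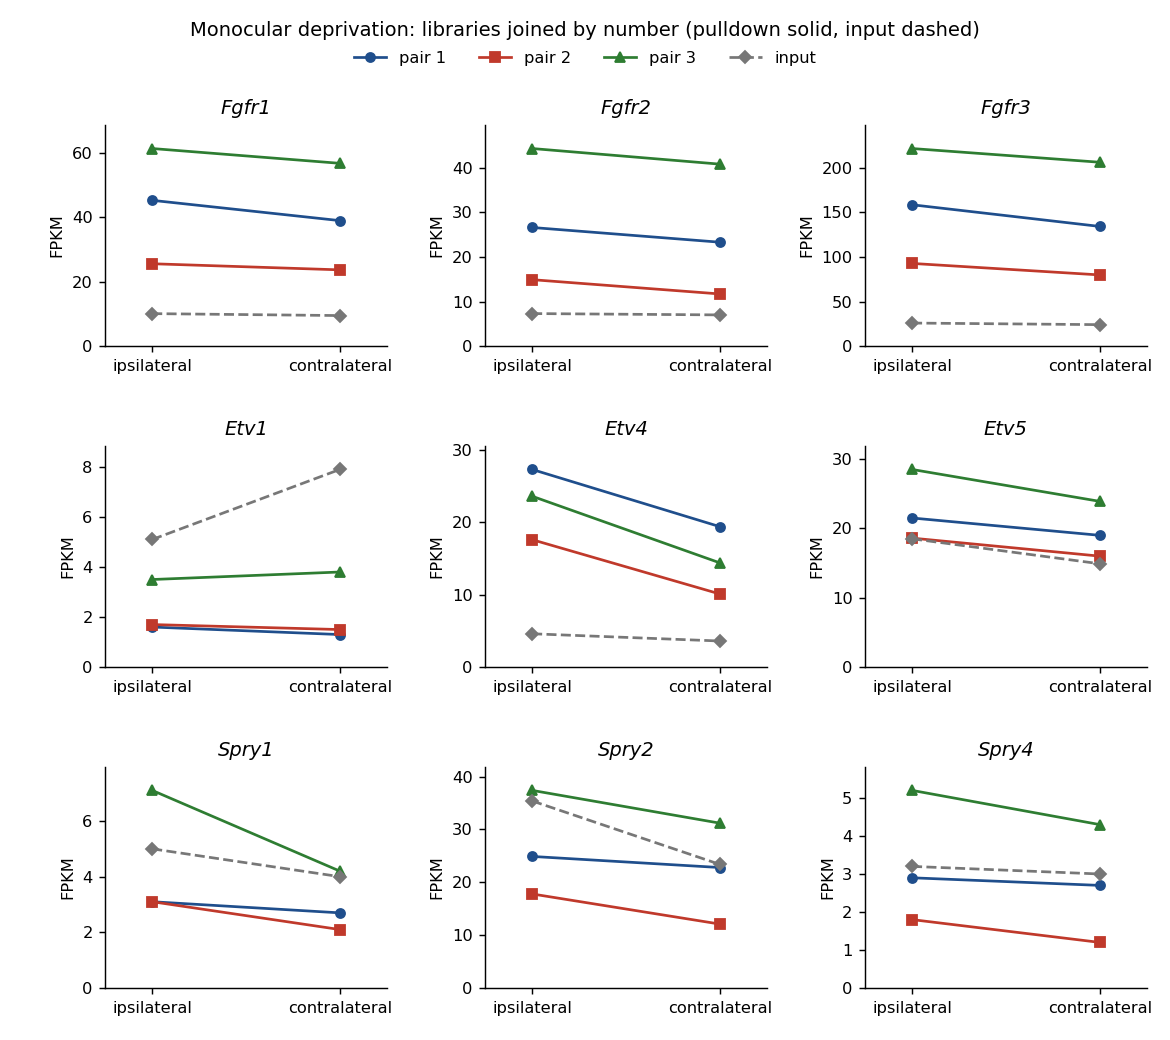
FPKM of each member in the ipsilateral and contralateral cortex, joined by replicate number (3 pulldown pairs solid, 1 input pair dashed), y axes from 0. Etv4 is contralaterally at 57.4% to 71.1% of its ipsilateral level, and the receptors differ more between pairs than between the cortices.

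Other genes of the pathway were counted from 5 lists of FGF genes, receptor partners, relay proteins, feedback inhibitors and other Ets factors. Of 22 FGF genes, 8 were listed at 0 in all pulldowns. Against input 7 were tested, of which 2 were higher and 5 lower (median -1.82). Fgf1, a ligand of all FGF receptors, was at 71.3 FPKM in pulldowns and 13.1 FPKM in inputs (2.32 ± 0.16, limma adjusted p = 7.96e-11). Fgf9, a neuronal ligand, was at 0.331 and 3.70 FPKM (-1.82 ± 0.09). The 7 also include Fgf11, Fgf12, Fgf13 and Fgf14, which act on sodium channels inside the cell and not on the receptors. The count and median are thus not those of ligands alone. Of these, Fgf12 and Fgf14 were at -2.60 ± 0.19 and -2.06 ± 0.15.

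Receptor partners and binding proteins had 8 of 13 tested genes higher and 5 lower in pulldowns (median 1.17). The heparan sulfate proteoglycans Sdc4 (2.96 ± 0.12) and Gpc5 (2.75 ± 0.20) and the kinase-free receptor Fgfrl1 (2.49 ± 0.12) were higher, and the adhesion protein Flrt2 (-2.25 ± 0.16) was lower. The relay from receptor to Erk had 2 of 22 higher and 12 lower (median -0.56), among the lower the adaptor Frs3 (-1.41 ± 0.10) and the kinases Braf (-1.88 ± 0.19) and Araf (-1.05 ± 0.10). Other feedback inhibitors had 3 of 12 higher and 7 lower (median -0.93). There Lrig1 (2.02 ± 0.17), which lowers receptor tyrosine kinases at the surface, was higher, and the phosphatases Dusp7 (-2.03 ± 0.17) and Dusp5 (-1.70 ± 0.20) were lower. Other Ets and Capicua factors had 1 of 10 higher and 7 lower (median -0.77), with Elk1 at -1.95 ± 0.16 and the repressor Cic at -0.92 ± 0.12. These genes passed by limma with Benjamini-Hochberg adjustment, beside the 77.1% of all genes that did.

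In the 3 comparisons with normal rearing 0 of the 63 tested genes of these lists passed by limma, and 3 in dark rearing, 3 in dark exposure and 11 in the ipsilateral comparison had an unadjusted p under 0.05. These were 4.76%, 4.76% and 17.5% of the 63, against 5.54%, 3.82% and 9.58% of all genes. In dark rearing the smallest p of the feedback list belonged to Dusp5 (-0.85 ± 0.30) and Dusp6 (-0.72 ± 0.27), both at a limma adjusted p of 0.866. Dusp6, the phosphatase that switches off Erk, is given by library, a choice made after its values were seen. It was at 14.6, 16.0 and 26.9 FPKM in normal rearing, at 9.7, 12.0, 9.8 and 12.0 FPKM in dark rearing and at 9.0, 10.1 and 16.7 FPKM in dark exposure. No dark-reared value reached the normally reared range, as was so on the lower side for 9.06% of genes. The Dusp6 inputs were at 58.5 FPKM in normal rearing, 22.3 in dark rearing and 20.2 in dark exposure, all above their pulldowns. Neuron markers summed to 281 to 466 FPKM in the dark-reared and to 473 to 1327 FPKM in the normally reared pulldowns. The part of neuronal RNA in the Dusp6 values was not tested. In the monocular pairs Dusp6 was at 6.7, 6.4 and 11.1 FPKM contralaterally against 8.4, 15.9 and 14.1 FPKM ipsilaterally, with inputs of 34.5 and 64.9 FPKM.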

How the data were processed

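Levels were the authors' deposited FPKM, 1 transcript per gene, given to 0.1. The submitters' processing notes name STAR 2.5.1b and HOMER 4.10 beside DESeq2, with mm10 as the build, and CASAVA 1.8.2, FastQC 0.11.2 and R 3.4.3, in no order. Of 22 labelled samples 21 were used; dark-reared replicate 2 was not analysed here, and 1 column of another sample was not used. Depth was estimated from genes under 130 bases, where 1 read makes a visible step in FPKM.

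Values were analysed as log2(FPKM + 1), which understates the change of low genes. Genes averaging above 1 FPKM in the libraries fitted, all 9 members among them, went into limma 3.58.1 (R 4.3.3). The eBayes step used its trend and robust options, tests were 2-sided, and the threshold was 0.05 after Benjamini-Hochberg adjustment across all genes. The 16 pulldowns shared 1 estimate of the spread. Pulldown and input were compared with a term for the group. The fit was tested on simulated data with known changes.

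Members and lists were chosen with earlier results of these data known. From each list, up to 4 passing genes with the smallest p were named, or 2 where none passed; Dusp6 was given by library. Same-numbered monocular libraries deviated together, at r = 0.802, 0.790 and 0.903, so their numbers were taken as pairs. Alternatives were pseudocounts of 0.1 and 5, no filter or a filter at 5 FPKM, other scalings, array weights, only the groups compared, blocks by number, no term for the group, 5 inputs against 5 group means, and leaving out each library. Fits without pair 2 or without the 6 monocular pulldowns were added after the data were seen. Positions of genes are those of GENCODE vM21. Python 3.11.15, pandas 2.3.3 and matplotlib 3.10.9 made the tables and figures.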

Additional observations from a re-analysis of the deposited data

How the results depend on the processing

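Rounding to 0.1 FPKM limits Etv1, Spry1 and Spry4 most, and a filter at a mean of 5 FPKM leaves them out. Counts were not used, so counting error is not separated. In dark rearing, values near 0 changed sign. Leaving out each library moved Fgfr1 between -0.030 and 0.027, with -0.013 without normally reared replicate 3, -0.030 without dark-reared replicate 4 and -0.0049 without dark-reared replicate 5. Fgfr3 went to -0.037 with quantile normalization and ranged from -0.0056 (without normally reared replicate 2) to 0.103 without single libraries, and Etv5 to 0.043 with quantile normalization and 0.087 with median-ratio scaling. In dark exposure Fgfr3 went to 0.011 with array weights and ranged from -0.135 to 0.022 (without dark-exposed replicate 1) without single libraries, and Etv1 ranged from -0.0032 (without normally reared replicate 2) to 0.242. Etv5 went to 0.025 in the ipsilateral comparison with median-ratio scaling. The cause was not tested.

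The replicate block of the monocular pairs gave 7 members in the ipsilateral comparison in place of 0. It changed the call of no member in the other comparisons with normal rearing. In the ipsilateral comparison the block understates the error, because normal rearing has no pairs. It gave 1033 genes there, 77 in dark exposure and 2 in dark rearing. The contralateral and ipsilateral libraries alone with the block gave 1 gene (705 at an unadjusted p under 0.05). A block by number in dark exposure gave 0 members and 0 genes (579 at an unadjusted p under 0.05). Normal and dark rearing share 1 number with values, so no paired fit could be made there.

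Leaving out each library gave 6 to 7 members in pulldown against input (8752 to 9476 genes). It gave 0 members in each comparison with normal rearing, with 0 to 3 genes in dark rearing and 4 to 15 in dark exposure. Genes called in dark exposure, 10 as reported, were 20 with a pseudocount of 5, 73 with no filter, 0 with a filter at 5 FPKM, 258 with array weights, 1 with only the groups compared and 46 without the 6 monocular pulldowns. In dark rearing, 1 as reported, array weights gave 27 and the pseudocount of 5, the filter at 5 FPKM and either scaling gave 2. In pulldown against input the filter at 5 FPKM gave 6070. Array weights gave 1 gene in the ipsilateral comparison.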
